A study of Mus musculus with 9 samples.

Results

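The genes described here encode axonemal dyneins, tektins, radial spoke and regulatory complex proteins and other cilia- and flagella-associated or sperm-associated proteins. They were chosen by name, as the probe sets with a single gene symbol beginning with Dnah, Dnai, Dnal, Cfap, Tekt, Rsph, Drc or Spag followed by a digit. This gave 95 of the 45101 probe sets on the array, for 60 genes. Of these, 83 probe sets for 57 genes passed a filter on signal and were tested, among 27022 probe sets kept in all. Cfap47, Dnah17 and Rsph4a had no probe set above the filter.

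The axoneme is the microtubule core of a motile cilium or a sperm tail. Outer and inner dynein arms slide its doublet microtubules against each other, radial spokes and the central apparatus relay control to the arms, and the nexin-dynein regulatory complex links neighbouring doublets. In the testis these genes are typically switched on in meiotic spermatocytes and in spermatids, which build the flagellum, and not in spermatogonia.

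Gene expression was measured on 9 Affymetrix arrays of spermatogonia from testes of adult Balb/C mice. The control group ate a normal diet (3 arrays), and the other groups ate a vitamin A-deficient (VAD) diet for 18 weeks (3 arrays) or 25 weeks (3 arrays). Vitamin A is the precursor of retinoic acid, which spermatogonia need to differentiate. Cells from 2 mice were dissociated, plated overnight and separated by sedimentation, and total RNA was amplified before labelling. The age of the control mice is not given, and nothing says whether arrays of a group came from separate preparations, so the p-values measure only the spread between these arrays. In such bulk samples, fewer cells of a type and less RNA per cell cannot be told apart.

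A pair of arrays stood apart from the rest. The third control array and the third array of the 25-week group, termed the dim pair, had trimmed mean signals of 23.0 and 23.3, against 55.6 to 186 on the other 7. They correlated at 0.776 to 0.809 with those arrays, which correlated at 0.935 to 0.981 among themselves. The fit used here therefore has a block for the dim pair beside the diet group, and it was chosen with the knowledge that a fit of group alone called 0 probe sets. All values below are log2 signals after quantile normalization, which gives each array the same distribution, so that every difference is relative to the other transcripts on the array. A member was called when limma's Benjamini-Hochberg adjusted p over all 27022 probe sets was under 0.05.

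The samples carried transcripts of more than the labelled cell type. Of 14 markers of undifferentiated spermatogonia on the array 8 passed the filter, and of 10 markers of differentiating spermatogonia all 10 did. So did 16 of 16 meiotic prophase markers, 15 of 15 pachytene spermatocyte markers and 21 of 21 spermatid markers. The filter drops probe sets with a mean below the 40th percentile, so passing is a matter of rank and not a detection call. In control the summed normalized signal was 16524 to 32256 for the 21 spermatid markers and 404 to 515 for the 8 undifferentiated ones. The flagellar genes were measured in this mixture.

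Promoter sequences of 51 of the 60 genes were matched in RefSeq (assembly GRCm38.p6), as 58 windows from 250 bases before to 50 bases after a gene start. They were searched on both strands for the X-box, the motif of the RFX transcription factors that govern many ciliary genes, with a spacer of 0 to 3 bases. It was found in 6 of the 58 windows (10.3%), for 5 genes, and in 1.53% of all 32851 windows. Windows of a gene with several starts can overlap, and the Tekt2 match falls in such an overlap. A stretch around 1 match per gene is shown, to put the motif beside the measured genes, with the X-box in capitals and each read 5′ to 3′ on the gene's strand.
Cfap45 (chr1:172521088-172521129, plus strand): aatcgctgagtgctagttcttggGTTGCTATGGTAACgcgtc
Tekt2 (chr4:126325682-126325741, minus strand): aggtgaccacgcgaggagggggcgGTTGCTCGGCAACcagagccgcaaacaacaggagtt
Spag16 (chr1:69826844-69826903, plus strand): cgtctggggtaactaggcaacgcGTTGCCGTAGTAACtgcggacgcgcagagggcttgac
Cfap298 (chr16:90934882-90934941, minus strand): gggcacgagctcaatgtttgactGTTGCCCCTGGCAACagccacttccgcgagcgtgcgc
Cfap20dc (chr14:8666356-8666415, minus strand): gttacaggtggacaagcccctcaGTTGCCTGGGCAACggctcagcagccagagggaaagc
Cfap298 also holds another match in the same window, at chr16:90935001-90935060, which is not shown. The cAMP response element TGACGTCA, the motif of CREM and CREB factors, was in 3 of the 58 windows (5.17%), those of Dnah6, Spag4 and Spag6l, and in 1.79% of all windows. A match is a description of these letters and was not tested as a binding site.

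Setting 25 weeks of VAD against control shows which of these transcripts differ after the longer deficiency. Relative to the normalized arrays, 21 of the 83 flagellar probe sets fell and 2 rose. These are 25.3% and 2.41% of the members, where 6.29% of all kept probe sets fell and 8.51% rose. On the deposited scale, without normalization between arrays, 17 of the 21 lay above 0 and 0 of the 21 fell, because the median of all probe sets there was 0.93. All 21 were below that median. The median log2 difference of the members was -0.29 against -0.01 for all kept probe sets, a gap of -0.28, and on the deposited scale the gap was -0.27. With group alone 0 members passed (limma adjusted p of at least 0.182), 8 being lower (9.64%, against 4.48% of all) and 2 higher (2.41%, against 7.4%) at an unadjusted p under 0.05. The count that fell was 10 to 24 when single arrays were left out (12% to 28.9%, against 2.52% to 6.7% of all). The lowest count was without control replicate 1, and the count was 13 and 12 without VAD 25-week replicates 1 and 2. Those 2 arrays were the brightest of the series, with trimmed means of 186 and 144. Control replicates 1 and 2 had 58.55 and 59.99. Outside the dim pair, the brightness and handling of the arrays therefore cannot be told apart from the diet in this comparison. Their part in the counts was not tested.

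**Figure D1:**
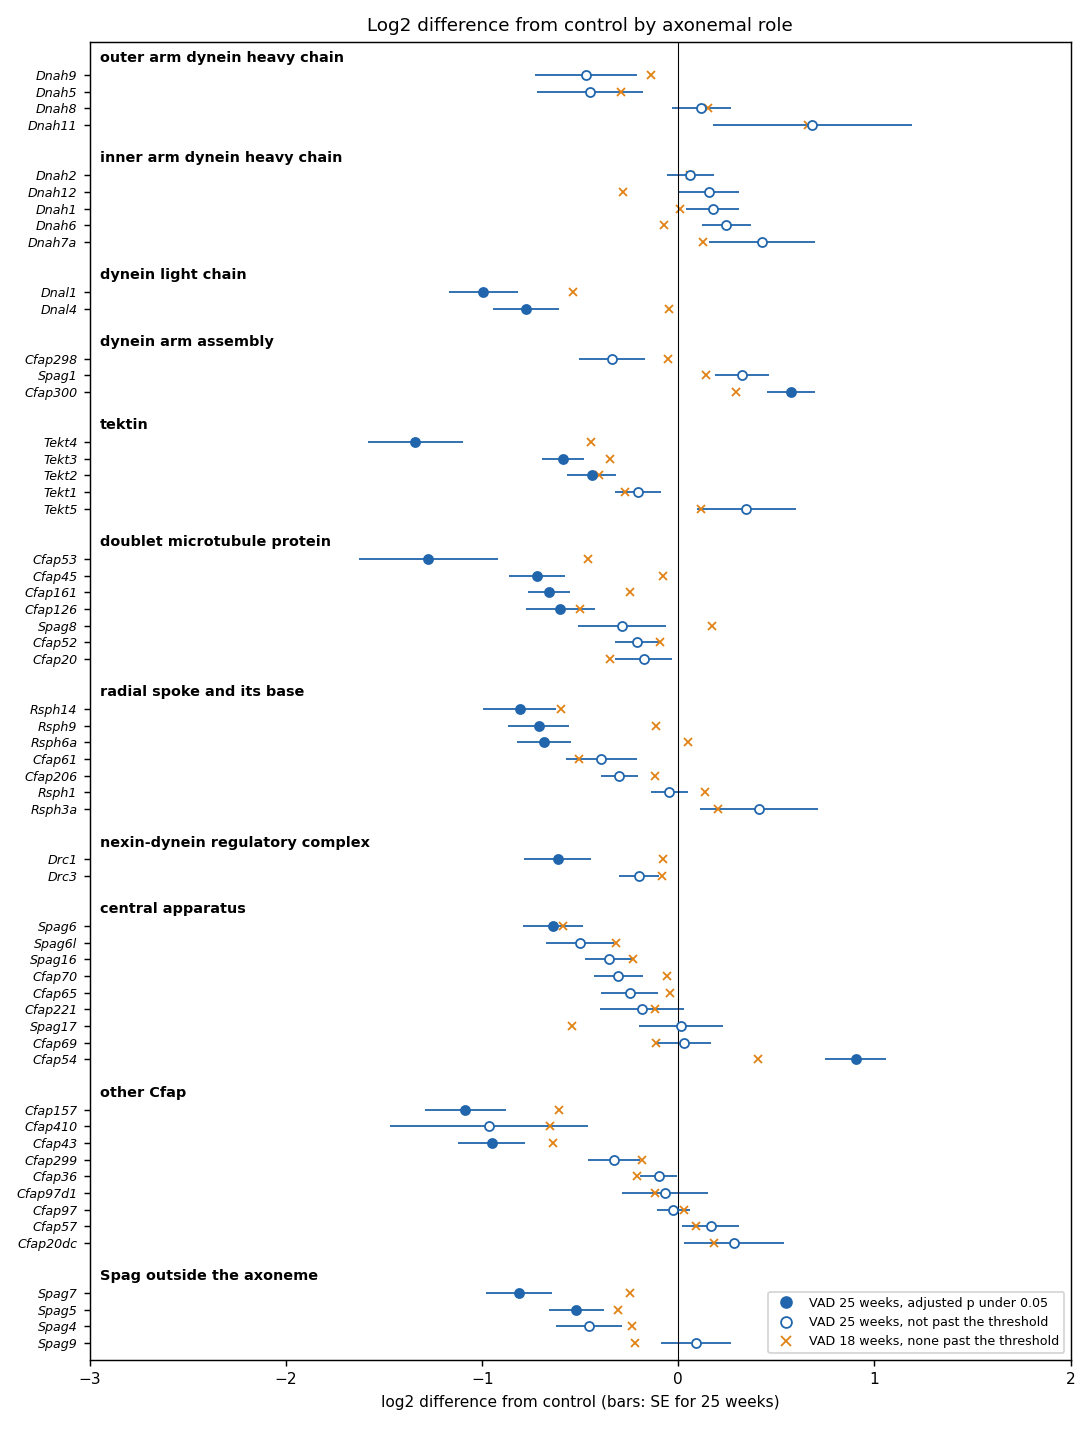
Log2 difference from control (x axis) of the 57 genes with a kept probe set, grouped by role in the axoneme, with circles for VAD 25 weeks (bars are SE, 3 arrays per group, dim-pair block) and crosses for VAD 18 weeks. Filled circles passed an adjusted p under 0.05, and they lie left of 0 for 18 genes and right of 0 for 2, Cfap54 and Cfap300.

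The dim pair took part in the fit, so its direction is no separate evidence for the probe sets called: its 25-week array was below its control array for 21 of the 21 members that fell, as for 99.7% of all probe sets that fell. Among all 83 members, called or not, it was below for 59 (71.1%, against 49.5% of all kept probe sets). The median difference of the members was -0.25 within the dim pair, where all kept probe sets had 0.01, and -0.26 among the other arrays, where all had -0.02. Among those other arrays, VAD 25-week replicates 1 and 2 did not overlap with control replicates 1 and 2 for 65 members, 49 of them lower (59.0%, against 32.2% of all kept probe sets) and 16 higher (19.3%, against 30.9%). Without the dim pair 24 members fell (28.9%, against 6.75% of all) and 3 rose (3.61%, against 8.92%), and 19 of the 21 were among the 24, the exceptions being Tekt2 (limma adjusted p = 0.106) and a dimmer Cfap61 probe set (limma adjusted p = 0.0702). With all 3 arrays of each group the members that did not overlap were 8 lower (9.64%, against 7.12%) and 2 higher (2.41%, against 9.13%), so that on this count the lower share was near the background.

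Each Dnah gene encodes a heavy chain that carries the ATPase of a dynein arm. With each gene represented by 1 probe set, 0 of the 9 measured heavy chains passed, but a dimmer probe set of Dnah1 fell, by 1.19 on the log2 scale (limma adjusted p = 0.00739). Of the 4 measured outer arm chains 0 passed, with differences from -0.47 for Dnah9 to 0.68 for Dnah11. Of the 5 inner arm chains 0 passed (smallest limma adjusted p 0.215). Several chains had low deposited signals in control, with 2.22, 4.18 and 8.08 for Dnah11 and 19.3, 14.6 and 8.03 for Dnah5. Dnah9 had 26.2, 29.0 and 25.3, and the inner arm chain Dnah7a 18.0, 19.3 and 1.60. For these dim probe sets the lack of a call says little. The representative probe sets of the inner arm genes Dnah1, Dnah2, Dnah6, Dnah7a and Dnah12 had values from 0.06 to 0.42. Dnah8, the outer arm chain of sperm, stood at 12.43, 12.53 and 11.85 in control and at 12.35, 12.42 and 12.39 at 25 weeks. The groups overlapped, with a difference of 0.12 ± 0.15 (SE, n = 3 per group).

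Both dynein light chains fell. Dnal1, a leucine-rich light chain bound to the outer arm motor domain, was at 7.92, 7.81 and 6.86 in control, at 7.28, 7.42 and 7.60 at 18 weeks and at 7.15, 7.01 and 5.45 at 25 weeks. Replicate 3 of both control and 25 weeks, the dim pair, was the lowest of its group, and the 25-week value was lower in either set of arrays. The difference was -0.99 ± 0.18 (limma adjusted p = 0.00501, or 0.0105 when the dim pair was left out). Dnal4, another axonemal light chain, was at 7.86, 7.50 and 8.38 in control and at 6.67, 6.85 and 7.90 at 25 weeks, a difference of -0.78 ± 0.17 (limma adjusted p = 0.0117). Here the dim pair held the highest value of each group, so the groups overlapped. The other 2 probe sets of Dnal1 were at 0.19 and 0.27 and did not pass.

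Of the 3 genes for dynein arm assembly, which takes place in the cytoplasm before the arms enter the axoneme, Cfap300 rose. It was at 8.63, 8.75 and 7.17 in control, at 9.13, 8.91 and 8.91 at 18 weeks and at 9.25, 9.30 and 7.73 at 25 weeks. The 25-week arrays were higher in each set, by 0.58 ± 0.12 (limma adjusted p = 0.0114). Spag1 (0.33) and Cfap298 (-0.34, with another probe set at 0.50) did not pass.

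Tektins are filament proteins that run inside the doublet wall, and 3 of 5 fell. Tekt4 had the largest decrease of all members, with 10.47, 10.23 and 8.35 in control, 9.59, 9.89 and 9.50 at 18 weeks and 8.45, 8.59 and 7.99 at 25 weeks. Outside the dim pair no 25-week array reached any control array, while the dim control array lay below the brighter 25-week arrays. The difference was -1.34 ± 0.24 (limma adjusted p = 0.0054), which is 0.395 of the control level on the scale with the pseudocount, and it stayed negative on the deposited scale (-0.40). Without the dim pair the Tekt4 difference was -1.83 (limma adjusted p = 0.000175). Tekt3 was at 9.87, 9.81 and 9.11 in control and at 9.32, 9.24 and 8.47 at 25 weeks, a difference of -0.59 ± 0.11 (limma adjusted p = 0.00575), and Tekt2 at -0.44 ± 0.13 (limma adjusted p = 0.037). Tekt1 (-0.20) and Tekt5 (0.35) did not pass.

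**Figure D2:**
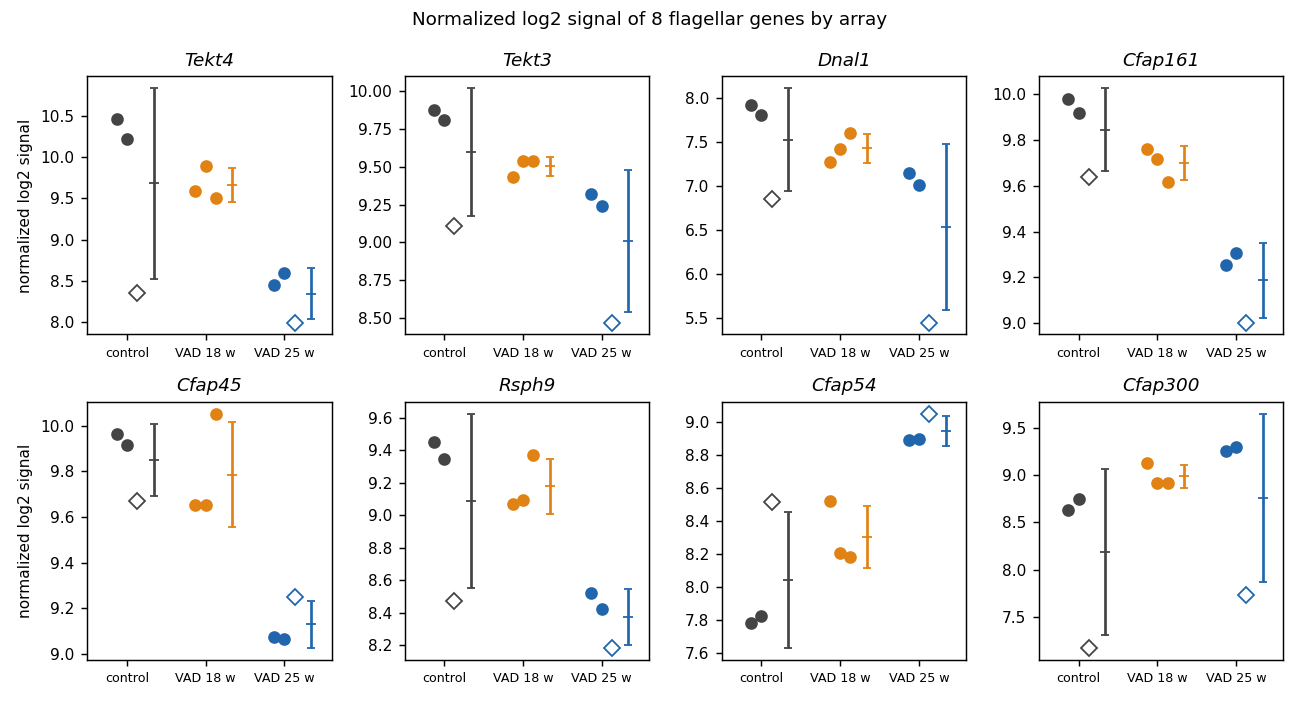
Normalized log2 signal (y axis) on each of the 9 arrays for 8 genes, with control in grey, VAD 18 weeks in orange, VAD 25 weeks in blue, open diamonds for the dim pair, and bars for mean and SD (n = 3). Among filled circles the 25-week values lie below control for the first 6 genes and above it for Cfap54 and Cfap300, and in 6 of the 8 panels a diamond is the lowest point of both its groups.

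Of 7 other proteins of the doublet microtubule, 4 fell and the other 3 were at -0.18 to -0.29. Cfap161 was at 9.98, 9.92 and 9.64 in control, at 9.76, 9.72 and 9.62 at 18 weeks and at 9.25, 9.30 and 9.0 at 25 weeks. All 3 arrays of the 25-week group were below all control arrays, and the difference of -0.66 ± 0.11 had the smallest adjusted p of any member (limma adjusted p = 0.003, and 0.216 with group alone). Cfap45 was at 9.96, 9.92 and 9.67 in control and at 9.07, 9.06 and 9.25 at 25 weeks, again without overlap, a difference of -0.72 ± 0.14 (limma adjusted p = 0.00786). Cfap53, which is also needed for dynein docking and left-right patterning, was at 9.32, 9.22 and 7.88 in control and at 8.77, 8.83 and 5.01 at 25 weeks. Its difference of -1.27 ± 0.35 (limma adjusted p = 0.0333) rested largely on the dim pair, since it was -2.88 within that pair and -0.47 without it (limma adjusted p = 0.0301). Cfap126 fell by 0.60 on the log2 scale, with -0.08 within the dim pair and -0.86 without it.

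Radial spokes reach from the doublets to the central apparatus. Of 7 genes of the spoke and its base, 3 fell. Rsph9, a spoke head protein, was at 9.45, 9.34 and 8.47 in control, at 9.07, 9.09 and 9.37 at 18 weeks and at 8.52, 8.42 and 8.18 at 25 weeks, a difference of -0.71 ± 0.15 (limma adjusted p = 0.0117). Rsph6a, its sperm-type head partner, was at 8.87, 8.74 and 9.48 in control and at 7.90, 8.05 and 9.10 at 25 weeks, a difference of -0.68 ± 0.14 (limma adjusted p = 0.0086). In both genes the groups overlapped through the dim pair and were apart on the other arrays. Rsph14 was at -0.81 ± 0.19 (limma adjusted p = 0.0149). Rsph1, another head protein, was at -0.05 ± 0.09, and Rsph3a was at 0.41.

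Of the 2 nexin-dynein regulatory complex genes under the naming rule, Drc1 fell by 0.62 on the log2 scale (limma adjusted p = 0.0343). It was at 9.79, 9.72 and 8.45 in control against 8.79, 9.13 and 8.20 at 25 weeks. Drc3 was at -0.20 without passing, and subunits under other names are given below. Of 9 genes of the central apparatus, Spag6 fell and Cfap54 rose. Spag6 was at 9.50, 9.59 and 7.70 in control and at 9.0, 8.88 and 6.98 at 25 weeks, a difference of -0.64 ± 0.15 (limma adjusted p = 0.0174), and it has a close paralogue, Spag6l (-0.50, limma adjusted p = 0.0731), whose transcripts the probe sets may share. Cfap54 was at 7.78, 7.83 and 8.52 in control, at 8.52, 8.21 and 8.18 at 18 weeks and at 8.89, 8.90 and 9.05 at 25 weeks. All 3 arrays of the 25-week group were above all control arrays, by 0.90 ± 0.15 (limma adjusted p = 0.00413). A dimmer probe set of Cfap54 went the other way, with -0.54 in the fit and -0.93 without the dim pair (limma adjusted p = 0.0275).

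Among the remaining Cfap genes, Cfap157, a protein of the sperm basal body, was at 7.28, 7.25 and 7.10 in control and at 6.06, 6.50 and 5.81 at 25 weeks. The groups did not overlap, and the difference was -1.09 ± 0.21 (limma adjusted p = 0.00688). Cfap43, needed for the sperm tail, was at 7.56, 7.95 and 7.21 in control and at 6.90, 6.85 and 6.10 at 25 weeks, likewise apart, by -0.95 ± 0.17 (limma adjusted p = 0.00486). A brighter Cfap43 probe set, of a type that can detect several transcripts, was at -0.12 (limma adjusted p = 0.663) and at 0.13 without the dim pair. The naming rule also took in 4 Spag genes that act outside the axoneme. Of these Spag7 (-0.81) and Spag5, a mitotic spindle protein (-0.52, with other probe sets at -0.20 and 0.20), fell, whereas Spag4, a nuclear envelope protein (-0.45), and Spag9, a kinase scaffold (0.09), did not pass.

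Different probe sets of a gene often disagreed. Of 19 genes with several kept probe sets, 11 had both signs at 25 weeks and 0 had every probe set called. Of the 21 probe sets that fell, 18 were the ones that stood for their gene. The other 3 belonged to Dnah1, Spag16 and Cfap61. The dimmer Dnah1 probe set was at 6.98, 7.58 and 4.19 in control and at 6.45, 6.19 and 2.53 at 25 weeks, a difference of -1.19 ± 0.23 (limma adjusted p = 0.00739), while the brighter one was at 0.17 ± 0.13. For Spag16 a dimmer probe set was at -1.11 ± 0.23 (limma adjusted p = 0.00907), and the brightest was at -0.36 ± 0.12 (limma adjusted p = 0.067).

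**Figure D3:**
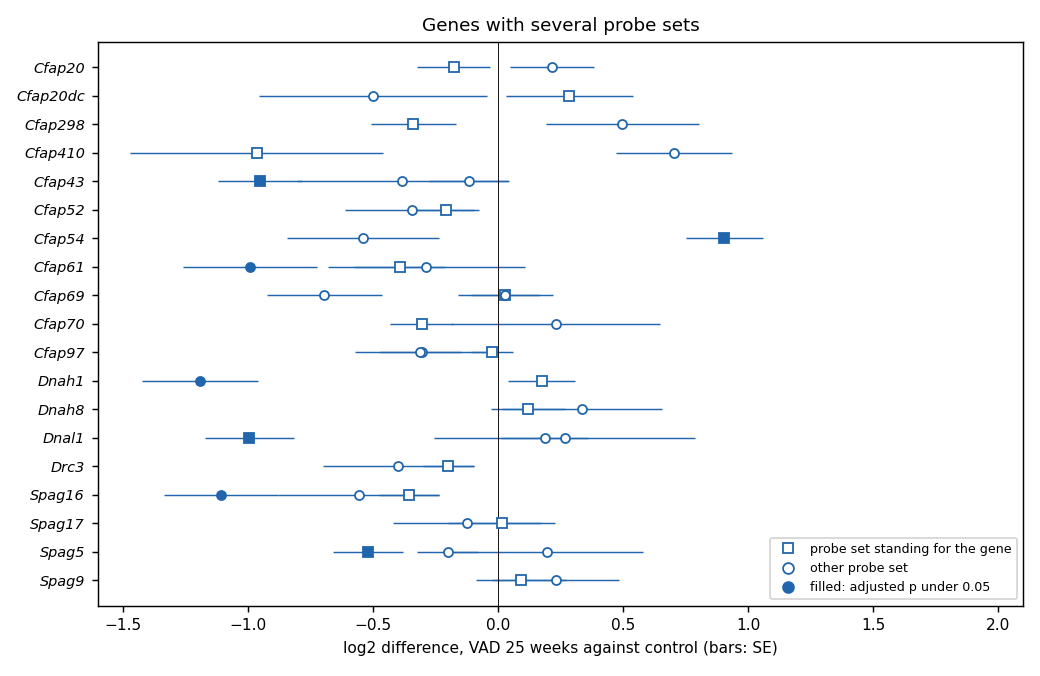
Log2 difference of VAD 25 weeks from control (x axis, bars are SE, 3 arrays per group) for every kept probe set of the 19 genes with several, with squares for the probe set that stands for the gene and filled symbols for an adjusted p under 0.05. Probe sets of 11 genes lie on both sides of 0, among them Cfap54, Dnah1 and Dnal1.

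The shorter deficiency, 18 weeks, was set against the same control arrays. Here 0 of the 83 flagellar probe sets passed in limma, where 0.133% of all kept probe sets fell and 1.32% rose, and at an unadjusted p under 0.05 17 were lower (20.5%, against 6.87% of all) and 3 higher (3.61%, against 9.61%). The members' median was -0.18 against -0.01 for all, and 59 of 83 were below 0 (71.1%, against 50.8%). With group alone the median turned to 0.14, whereas leaving out the dim pair gave a median of -0.17 and 2 members that fell, namely Tekt4 (-0.69, limma adjusted p = 0.0272) and Cfap126 (-0.63, limma adjusted p = 0.0378), where 0.803% of all kept probe sets fell and 3.18% rose. Lowest by p with the block was Spag6, which was at 8.64, 9.09 and 9.19 at 18 weeks and differed from control by -0.59 ± 0.16 (limma adjusted p = 0.0974). These arrays share the control arrays with the 25-week comparison, and the offset of the dim pair is estimated in part from the 25-week arrays.

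**Figure D4:**
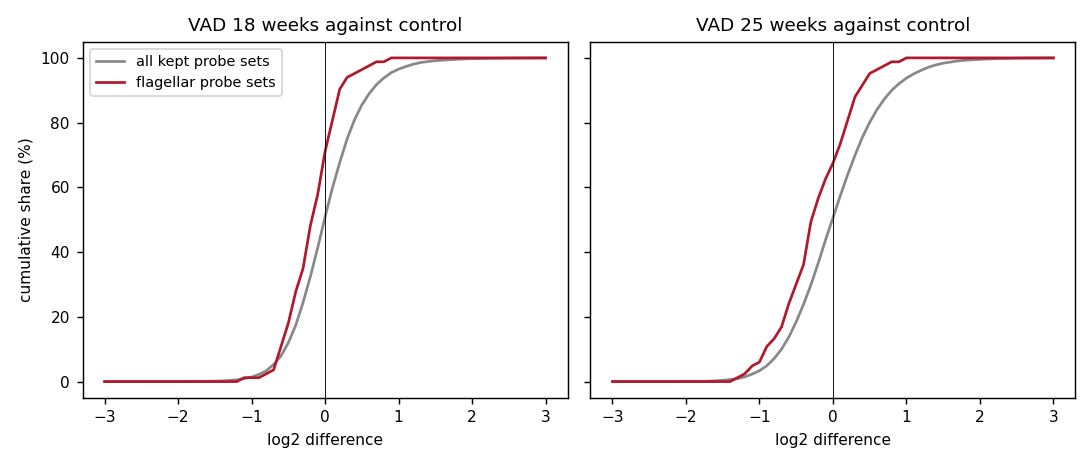
Cumulative share in percent (y axis) of probe sets at or below each log2 difference from control (x axis) for VAD 18 weeks and VAD 25 weeks, with the 83 flagellar probe sets in red and all 27022 kept probe sets in grey. The red curve crosses 0 at 71.1% at 18 weeks and 67.5% at 25 weeks, above the 50.8% and 50.6% of the grey curve.

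The direct comparison of 25 with 18 weeks asks whether the transcripts moved further with time. Nothing given here separates time on the diet from the age of the mice. With the block 0 members passed in limma, as did 0 of all kept probe sets, with a median of -0.07. At an unadjusted p under 0.05 9 members were lower (10.8%, against 5.9% of all) and 5 higher (6.02%, against 5.67%). Without the dim pair 5 members were lower (6.02%, against 1.03% of all) and 1 higher (1.20%, against 0.64%). The lower ones were Tekt4 (-1.14, limma adjusted p = 0.0156), Rsph6a (-0.81, limma adjusted p = 0.0225), Rsph9 (-0.71), Cfap45 (-0.72) and Dnal4 (-0.80). The higher one was Dnah12 (0.56, limma adjusted p = 0.0432). In that set of arrays the 25-week group is replicates 1 and 2 alone, and the handling of those arrays, the brightest of the series, cannot be told apart from the longer diet.

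Other axonemal genes, outside the naming rule, were taken from lists by function. Their counts stand beside the 6.29% of all kept probe sets that fell and the 8.51% that rose. Of 21 genes for dynein docking, axonemal rulers, inner arm partners and the regulatory complex 8 fell and 1 rose at 25 weeks (median -0.42). These included Ttc25, a docking protein of the outer arm (-1.10 ± 0.14, limma adjusted p = 0.00092). Of the regulatory complex subunits in this list, Gas8, a core subunit (-1.20 ± 0.20), Tcte1 (-0.93 ± 0.19), Ccdc65 (-0.63) and Iqcg (-0.54) fell. Fbxl13 (0.26) and Iqcd (-0.10) did not pass. Of 21 further radial spoke and central pair genes 4 fell and 0 rose (median -0.23), among them Dydc1 (-1.09 ± 0.16) and Ttll9 (-0.68 ± 0.16), with Hydin at 0.31 ± 0.14 (limma adjusted p = 0.16). A list of 14 genes for the outer dense fibres and the fibrous sheath also held other sperm proteins, such as Tcp11, Gsg1, Smcp and Spata18. Of its genes 6 fell and 0 rose (median -0.53), including Odf4 (-0.84 ± 0.11), Tcp11 (-0.69 ± 0.12) and Odf2 (-0.50 ± 0.10). Odf1, Akap4, Gapdhs and Smcp of this list also stand among the spermatid markers below. Ldhc of this list and Mns1 of the docking list also stand among the pachytene markers. Of 16 further genes listed for dynein assembly, which also took in flagellar genes of other roles such as Lrrc46, 4 fell and 2 rose. Dnaaf4 was at 0.96 ± 0.17, Lrrc46 at -0.87 ± 0.18 and Ruvbl2 at -0.73 ± 0.15. On the deposited scale the medians of these 4 lists were 0.52, 0.70, 0.29 and 0.85, below the 0.93 of all probe sets.

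Transport genes were taken from lists in the same way, to be read against the 8.51% of all kept probe sets that rose and the 6.29% that fell. Of 23 genes of cytoplasmic dynein and shared light chains 4 rose and 2 fell (median 0.18), with Dync1i2 at 0.76 ± 0.13, Dync2li1 at 0.68 ± 0.13 and Dync1li2 at 0.64 ± 0.14. Of 24 intraflagellar transport genes 5 rose and 2 fell (median 0.15), including Wdr19 (0.74 ± 0.16) and Ttc30a1 (1.50 ± 0.14), whose close paralogue Ttc30a2 was at 0.50 ± 0.11. Of 11 transcription factors linked to ciliary or flagellar genes 3 fell and 2 rose. Crem, a spermatid activator, fell by 1.09 on the log2 scale and E2f5 by 1.63. The E2f5 probe set was at 7.28, 8.03 and 13.43 in control and at 5.23, 5.95 and 12.65 at 25 weeks. Its dim-pair values stood far above the other arrays, and it passed without that pair (limma adjusted p = 0.00283). The RFX genes went both ways. Rfx7, a relative of the X-box factors, was at 1.68 ± 0.21 and Rfx5 at 0.74, while Rfx1 fell (-0.85). Rfx2 (0.24), Rfx3 (-0.39) and Rfx4 (0.40) did not pass. At 18 weeks 1 gene rose in each of 2 lists, Dnaaf4 (0.91) among the assembly factors and Ttc30a1 (1.13) in the transport list, and 0 fell in any of these 7 lists. The difference between lists was not tested. Without the dim pair the counts at 25 weeks were 0 higher and 6 lower for docking, rulers and regulatory complex. They were 0 and 4 for spokes and central pair. For dense fibres, sheath and other sperm proteins they were 0 and 3, and for the assembly list 4 and 3. They were 6 higher and 2 lower for cytoplasmic dynein, 6 and 1 for intraflagellar transport, and 2 and 4 for transcription factors.

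Markers of germ cell stages and of other cells were read in the same comparison at 25 weeks. Of all kept probe sets 8.51% rose and 6.29% fell, and in lists this short a count of 1 carries little weight beside those shares. Of the labelled cells, 1 of 8 undifferentiated spermatogonia markers rose and 0 fell (median 0.29), and of 10 differentiating spermatogonia markers 2 rose and 1 fell (0.10). Of 15 pachytene spermatocyte markers 4 fell and 1 rose (median -0.29), of 21 spermatid markers 6 fell and 0 rose (-0.34), and of 16 meiotic prophase markers 5 rose and 1 fell (0.23). Of 20 Sertoli cell markers 11 rose and 0 fell, and their summed normalized signal was 439 to 528 on the control arrays, 1029 to 2930 at 18 weeks and 1254 to 2200 at 25 weeks. The summed spermatid signal was 16524 to 32256 on the control arrays, 19199 to 25975 at 18 weeks and 11861 to 28858 at 25 weeks, which overlap. At 18 weeks the spermatid markers had a median of -0.41, with 1 lower and 0 higher. Of the Sertoli markers 7 rose and 0 fell at 18 weeks (median 1.47, against 1.38 at 25 weeks). Among all kept probe sets 1.32% rose and 0.133% fell at 18 weeks. Of 5 Leydig markers 1 rose, of 6 leukocyte markers 3 rose and of 4 peritubular myoid markers 0 passed, and 0 fell in these lists. Of 7 markers of ciliated epithelium, another possible source of axonemal transcripts, 2 fell and 0 rose, with Foxj1 at -0.71 (limma adjusted p = 0.22). Foxj1 was also counted among the transcription factors above, and Dynlrb2, among those that fell (-0.46), in the cytoplasmic dynein list. The part of any of these cells in the flagellar values was not tested.

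The scaling of the arrays set the sign of most values. At 25 weeks against control the members' median was -0.29 with quantile normalization, where that of all tested probe sets was -0.01. Centring each array on its median gave -0.20 against 0.08, and the values as deposited gave 0.65 against 0.93, so that the members' median was the lower one each time. For 25 against 18 weeks this was not so: the gap between members and all was -0.08 with quantile normalization and 0.01 with either of the others. With centring 13 members fell (15.5%, against 3.04% of all) and 3 rose (3.57%, against 10.3%). As deposited 0 fell and 21 of 84 rose (25.0%), where 39.1% of all rose. As deposited, the Tekt4 signals were 1422, 1232 and 101 in control and 1057, 893 and 80.8 at 25 weeks, lower within each set of arrays. For Cfap161 the deposited signals were 1007, 988 and 258 in control and 1819, 1462 and 156 at 25 weeks, higher outside the dim pair and lower within it.

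**Figure D5:**
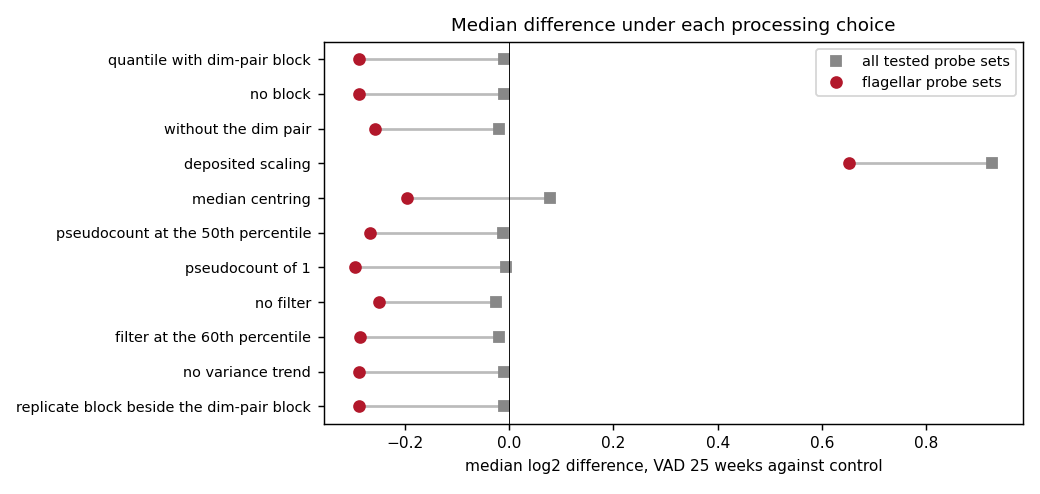
Median log2 difference of VAD 25 weeks from control (x axis) for the flagellar probe sets (red circles) and for all tested probe sets (grey squares) under 11 processing settings (y axis). The red circle lies left of its square in every setting drawn, including the deposited scaling, where the values are 0.65 and 0.93.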

How the data were processed

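The authors deposited 1 intensity for each probe set and array, made with MAS5 per the submitters' processing notes and linear by its values. Detection calls were not used, and the MAS5 scaling target is not given in the sources used here. Signals were transformed as log2(signal + 3.259), the pseudocount being the 25th percentile, which understates changes of low signals, and were quantile normalized. Then 64 control probe sets were dropped, as were those whose mean lay below the 40th percentile. Symbols come from a platform table. Each gene is represented by its brightest kept probe set, those prone to cross-hybridisation last. Limma 3.58.1 in R 4.3.3 was fitted over 9 arrays with group and the dim pair (trimmed mean, 2% from each end, under 0.5 of the median) as terms, 5 residual degrees of freedom and a trend in the variance. The fit was tested on simulated data. Precision is limited by how few arrays there are. Members, lists and tests were chosen with earlier results of these data known. Named in full are members past the threshold (the 10 highest and 10 lowest differences per comparison), the 2 with the smallest p in each role, and 3 per list of partner genes. Dnah8, Tekt2, Cfap126 and Rsph1 and others given by value alone were named after their values were seen.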

Additional observations from a re-analysis of the deposited data

How the results depend on the processing

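The calls depended on the dim-pair block and on the scaling. With group alone 0 members were higher and 0 lower at 25 weeks, the 18-week median was 0.14 and the 25 against 18 weeks median was -0.35. Without the dim pair 2 were lower at 18 weeks, and 1 higher and 5 lower at 25 against 18 weeks. On the deposited scale 21 were higher and 0 lower at 25 weeks, with a median of 0.65, and 6 were higher at 25 against 18 weeks (7.14%, against 6.66% of all), with a median of 0.84 where all probe sets had 0.82. Members with a negative value at 25 weeks, named by the rule or among those that fell, that turned positive on that scale were Cfap157 (0.00), Dnal1 (0.12), Cfap61 (0.06), Cfap43 (0.12), Spag7 (0.24), Rsph14 (0.30), Cfap161 (0.23), Cfap45 (0.19), Rsph6a (0.24), Rsph9 (0.23), Spag6 (0.36), Dnah9 (0.55), Dnah5 (0.48), Dnal4 (0.19), Drc1 (0.32), Drc3 (0.70), Spag5 (0.48), Tekt3 (0.34), Tekt2 (0.52) and Cfap126 (0.32). With median centring 2 were lower at 18 weeks (2.38%, against 0.611% of all, median -0.35) and 13 at 25 weeks (15.5%, against 3.04%, median -0.20). The 25 against 18 weeks median was 0.17. With no trend in the variance 1 was higher (1.2%, against 5.67% of all) and 11 lower (13.3%, against 3.13%) at 25 weeks. Leaving out single arrays gave 1 to 2 higher (1.2% to 2.41%, against 4.1% to 8.79% of all) and 10 to 24 lower (12% to 28.9%, against 2.52% to 6.7%) at 25 weeks. It gave 0 to 2 lower at 18 weeks (at most 2.41%, against at most 0.755%). For 25 against 18 weeks it gave 0 to 1 higher (at most 1.2%, against at most 0.54%) and 0 to 5 lower (at most 6.02%, against at most 0.91%). The causes were not tested beyond the construction of each setting. The other pseudocounts and filters left the counts within 1.5 times.

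Replicate numbers do not pair the arrays by any label. Same-numbered arrays correlated in their deviations from group means at -0.0047 to 0.69, with 3 of 9 pairs over 0.1. The highest value was that of the dim pair. Arrays of different number could correlate as well, since control replicate 1 was at 0.540 with VAD 25-week replicate 2 and at 0.525 with replicate 1. With the replicate block beside the dim-pair block 17 members were lower (20.5%, against 3.84% of all) and 2 higher (2.41%, against 5.75%) at 25 weeks. Cfap53, Cfap61, Spag5, Tekt2 and Cfap126 were no longer past the threshold (limma adjusted p = 0.0778, 0.0559, 0.0618, 0.0771 and 0.0561), and Spag6l was newly past it (0.0322).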
